A study of Mus musculus with 24 samples.

Results

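Mouse cortical astrocytes from which the insulin receptor gene had been deleted in culture were compared after insulin and after insulin-like growth factor 1 (IGF-1). The comparison used 8 of the 24 libraries of the series, chosen by their titles: 4 labelled IRKO with insulin and 4 labelled IRKO with IGF-1. All 24 libraries came from primary astrocytes of newborn pups carrying floxed insulin receptor alleles (Insr). IRKO cells had received an adenovirus encoding Cre:GFP, and floxed control cells an adenovirus encoding GFP alone, so the deletion and the Cre virus go together. After infection the cells were kept for 5 further days, deprived of serum overnight and treated for 6 h with insulin or IGF-1, each at 100 nM, or with vehicle. The IRKO insulin, IRKO IGF-1 and IRKO vehicle groups, and the same 3 groups of floxed control cells, had 4 libraries each. Nothing in the labels tells separate cultures from repeated libraries within a group, and p-values therefore cover library-to-library spread that could be technical.

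Insulin and IGF-1 are related hormones that act through a pair of homologous receptor tyrosine kinases, the insulin receptor and the IGF-1 receptor (Igf1r). Each hormone also binds the other's receptor, with lower affinity, and a cell without insulin receptors keeps the IGF-1 receptor. Both receptors use insulin receptor substrates to switch on PI3-kinase and AKT, which hold FOXO transcription factors out of the nucleus and activate mTORC1, and both also feed the Ras to MAPK cascade, which induces its own phosphatase and Sprouty-family brakes. Astrocytes, the glial cells that supply neurons with cholesterol, lactate and potassium buffering, use these routes to set lipid synthesis, autophagy and growth factor release.

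Among the 8 libraries, the reads counted in genes numbered 16114140 to 18593268 per library, and 15599 genes had enough counts to be tested. Reads outside genes made up 16.5% to 21.9% of reads in the insulin libraries and 16.6% to 21.4% in the IGF-1 libraries (exact two-sided permutation test, p = 0.857, where the smallest p that 4 against 4 allows is 0.0286). Levels below are CPM (gene counts scaled to a common library total) after TMM scaling, which compare 1 gene between libraries and not genes with each other. Differences are log2 values of insulin over IGF-1 with their standard error (SE), and a gene was called where edgeR's quasi-likelihood test gave a p under 0.05 after Benjamini-Hochberg adjustment. The 95% interval of a log2 difference reached 0.153 to either side of its value for the median gene.

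The targeted gene, Insr (chr8:3122061-3279617, minus strand, mm10), was checked first. It had 26.6, 29.6, 29.0 and 30.6 CPM in the IRKO insulin libraries, against 29.0, 29.6, 30.3 and 32.2 CPM in the IRKO IGF-1 libraries. The ligand groups overlapped, and the log2 difference was -0.07 (95% interval -0.19 to 0.06, edgeR adjusted p = 0.711). Floxed control cells under the same hormones had 47.5 to 52.6 CPM with insulin and 46.7 to 50.9 CPM with IGF-1, above each of the 8 IRKO libraries. Insr was thus lower and not absent in the IRKO libraries, and the source of the remaining reads was not tested.

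The difference between the hormones was small in size and touched a limited set of genes. Insulin and IGF-1 differed in 417 of 15599 genes (2.67%), of which 166 were higher under insulin (1.06%) and 251 lower (1.61%). The median called gene differed 1.18-fold, and 19 calls exceeded 1.5-fold, 9 higher (0.0577%) and 10 lower (0.0641%). The 4 insulin and 4 IGF-1 libraries did not overlap in 385 of the 417 called genes, which is 2.47% of all genes tested. Regardless of the call, they did not overlap in 8.89% of all genes, with insulin above in 4.25% and below in 4.64%. At an unadjusted p under 0.05 stood 2147 genes (13.8%). Without insulin replicate 1 the fit called 267 genes, 254 of them among the 417, and without insulin replicate 3 it called 277, 253 of them among the 417.

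**Figure D1:**
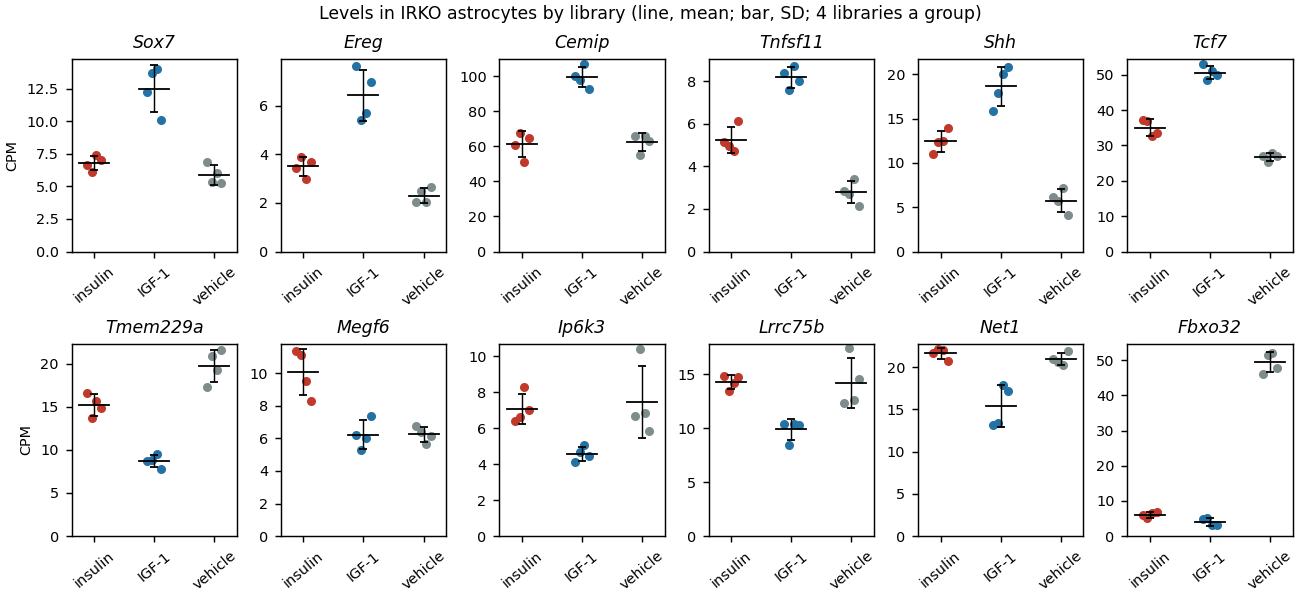
CPM of 12 genes in each IRKO library under insulin, IGF-1 and vehicle (4 libraries a group; line, mean; bar, SD), on axes from 0. In the upper row insulin lies below IGF-1, as for Cemip with 51.1 to 67.8 CPM under insulin, against 92.8 to 107 CPM under IGF-1; in the lower row it lies above.

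Over all calls the log2 difference ran to 1.96 for Dmc1 and -1.04 for Gm10825, both of low level; the genes described next averaged 2 or more in log2 CPM and had insulin and IGF-1 libraries that did not overlap. The 12 largest differences below IGF-1 among them are given first. Sox7 (chr14:63943673-63950732), a SoxF transcription factor, had 6.66, 6.08, 7.38 and 7.00 CPM in the insulin libraries, against 12.2, 13.7, 14.0 and 10.1 CPM in the IGF-1 libraries. It was lower in each insulin library than in any IGF-1 library (log2 difference -0.88, SE 0.12, edgeR adjusted p = 7.62e-06). Cemip (chr7:83932857-84086502), which takes part in breaking down hyaluronan, had 60.9, 67.8, 51.1 and 64.9 CPM under insulin, against 100.3, 98.0, 107 and 92.8 CPM under IGF-1. That gap of -0.70 (SE 0.07, edgeR adjusted p = 1.17e-08) came with no overlap, and vehicle libraries held 55.1 to 65.8 CPM, within the range of the insulin libraries. Tcf7, a transcription factor of the Wnt pathway, had 37.2, 36.8, 32.6 and 33.6 CPM under insulin, against 53.04, 48.5, 50.9 and 50.0 CPM under IGF-1, again without overlap (log2 difference -0.53, SE 0.06, edgeR adjusted p = 6.59e-07). Tnfrsf12a, the receptor of the cytokine TWEAK, was lower by the same measure (-0.56, edgeR adjusted p = 8.81e-05), with 37.8 to 47.4 CPM under insulin, against 54.4 to 66.1 CPM under IGF-1. Lpar6, a receptor for lysophosphatidic acid, stood at -0.58 (edgeR adjusted p = 0.000366). Espl1, which encodes the protease separase, differed by -0.60, a call lost without insulin replicate 1 or IGF-1 replicate 2. Ankrd34a (-0.55) and the noncoding Epb41l4aos (-0.66) completed the 12 lowest with Ereg, Tnfsf11, Ccl20 and Shh, described among the secreted signals. The call of Ankrd34a was lost without insulin replicate 2 or 3 or IGF-1 replicate 3, and that of Epb41l4aos without insulin replicate 1 or IGF-1 replicate 3.

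The 12 largest differences above IGF-1, by the same rule, were in genes of at most 27.1 CPM. Tmem229a (chr6:24951141-24956297), a membrane protein gene, had 16.6, 13.6, 15.6 and 14.9 CPM under insulin, against 8.72, 8.86, 9.50 and 7.77 CPM under IGF-1. Its 2 groups were far apart (log2 difference 0.80, SE 0.11, edgeR adjusted p = 4.62e-06), and vehicle libraries lay higher still at 17.2 to 21.5 CPM. Megf6, which encodes a protein with many EGF-like repeats, had 11.4, 11.1, 9.52 and 8.32 CPM under insulin, against 6.20, 5.30, 6.05 and 7.40 CPM under IGF-1 (log2 difference 0.69, SE 0.14, edgeR adjusted p = 0.00145). In contrast to Tmem229a, its IGF-1 libraries spanned the vehicle range of 5.65 to 6.79 CPM and the insulin libraries lay above it. Net1, a guanine nucleotide exchange factor for RhoA, had 21.7, 22.2, 22.01 and 20.8 CPM under insulin, against 13.2, 13.4, 17.9 and 17.1 CPM under IGF-1 (0.49, SE 0.08, edgeR adjusted p = 0.000115). The IGF-1 libraries of Net1 fell into a lower and a higher pair, both below every insulin library. Lrrc75b (0.53) and Paqr4 (0.46), a progestin and adipoQ receptor family member linked to ceramide handling, were called in all 16 alternative fits, as was the predicted gene 4930578M01Rik (0.73). Calls of the inositol phosphate kinase gene Ip6k3 (0.62), of Mro (0.53), Gm973 (0.52), Ttc25 (0.51), the chemokine receptor gene Cxcr4 (0.50) and Gm35040 (0.45) were lost when single libraries were left out. Those libraries were IGF-1 replicate 1 or insulin replicate 3 for Ip6k3, insulin replicate 3 for Mro, and insulin replicate 1 or IGF-1 replicate 2 for Gm35040. For Gm973 they were insulin replicates 1 and 3 and IGF-1 replicates 1 and 4, for Ttc25 insulin replicates 1 and 4 and IGF-1 replicates 3 and 4, and for Cxcr4 all but insulin replicate 2 and IGF-1 replicate 4.

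The same hormones were compared in floxed control astrocytes, which share no library with the IRKO comparison. There 404 of 15599 genes were called (2.59%), 233 higher under insulin (1.49%) and 171 lower (1.1%). Of the 417 genes called in IRKO cells, 408 had the same direction in floxed control cells (97.8%, against 63.0% of all genes tested), and 186 were called in both, which is 44.6% of the IRKO calls and 46.0% of the floxed control calls. Each of those 186 had the same direction in both genotypes. For genes called higher in IRKO cells the median log2 difference was 0.25 in IRKO and 0.19 in floxed control cells, and for those called lower it was -0.23 and -0.17. The IRKO values of called genes had passed a threshold that the floxed control values had not, so a smaller floxed control median is not a test of a difference.

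A test of the difference itself, insulin over IGF-1 in IRKO minus the same in floxed control, called 0 of 15599 genes (0%) in edgeR, with 690 genes at an unadjusted p under 0.05 (4.42%) and a smallest adjusted p of 0.129. DESeq2 called 2 genes, Slfn5 and Fgl2, and edgeR called Slfn5 alone when IRKO IGF-1 replicate 2 was left out (adjusted p = 0.0437). Without the filter on low counts edgeR called 16 genes, 6 higher and 10 lower. The 10 lower had 22059 to 738271 counts over the 24 libraries. They were Slfn5, Slfn8, Fgl2, Cmpk2, Cxcl9, Gbp10, Rnf213, Ifit1 (log2 -0.25), Ifit2 (-0.35) and Rsad2 (-0.32), several of which are interferon-induced. The 6 higher were Lars2, Septin3, Prxl2b, Neat1, Gm23935 and Mir6236. These genes were named after their values were seen. Slfn5, an interferon-induced Schlafen family gene, averaged 49.8 CPM under insulin, against 56.5 CPM under IGF-1 in IRKO cells, and 55.9 and 46.4 CPM in floxed control cells. Megf6 and Paqr4, high under insulin in IRKO cells, had log2 differences of 0.14 and 0.06 in floxed control cells. The genotype differences for them were 0.55 (95% interval 0.13 to 0.96) and 0.39 (95% interval 0.16 to 0.63), each with an edgeR adjusted p of 0.999.

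**Figure D2:**
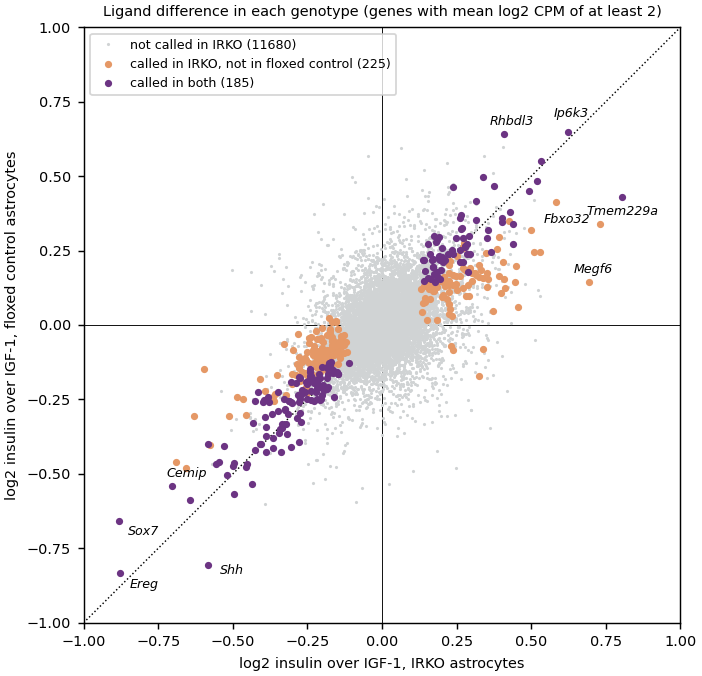
Log2 insulin over IGF-1 in IRKO astrocytes (x axis) against the same in floxed control astrocytes (y axis) for 12090 genes with a mean log2 CPM of at least 2; colours show 225 genes called in IRKO but not in floxed control cells, and 185 called in both. Most called genes have the same sign on both axes, with Sox7 and Ereg at the lower left and Megf6 to the right of the dotted line of equal difference. Over all calls the medians were nearer 0 in floxed control cells, at 0.19 against 0.25 in IRKO for higher calls and -0.17 against -0.23 for lower calls.

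Among 25 genes of cholesterol synthesis and uptake 12 were lower, against 1.61% of all genes tested, and 0 were higher. The median log2 difference was -0.17, against 0.00078 over all genes tested. In floxed control cells 12 were lower and the median was -0.14. The genes with the lowest p are shown with the sequence upstream of them, since the promoters of this pathway are the known binding ground of SREBP2 and of NF-Y, the factor that reads the CCAAT box. In the following lines capitals mark a CCAAT box, written CCAAT or, on the other strand, ATTGG, and the core of a sterol regulatory element, searched as TCACNNCA on both strands. Sequences are from RefSeq (GRCm38.p6), upstream of each gene on its own strand, Hsd17b7 at chr1:169969242-169969455 (minus), Lss at chr10:76531355-76531587 (plus) and Cyp51 at chr5:4104747-4104947 (minus).
Hsd17b7: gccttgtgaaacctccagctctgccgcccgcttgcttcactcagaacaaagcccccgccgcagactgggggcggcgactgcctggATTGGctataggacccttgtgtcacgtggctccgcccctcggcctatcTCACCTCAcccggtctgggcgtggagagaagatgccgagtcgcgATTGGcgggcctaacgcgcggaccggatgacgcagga
Lss: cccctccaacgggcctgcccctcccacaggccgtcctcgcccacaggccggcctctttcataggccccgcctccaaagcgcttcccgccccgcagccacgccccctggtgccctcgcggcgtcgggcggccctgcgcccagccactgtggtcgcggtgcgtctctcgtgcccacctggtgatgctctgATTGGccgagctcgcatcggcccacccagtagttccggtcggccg
Cyp51: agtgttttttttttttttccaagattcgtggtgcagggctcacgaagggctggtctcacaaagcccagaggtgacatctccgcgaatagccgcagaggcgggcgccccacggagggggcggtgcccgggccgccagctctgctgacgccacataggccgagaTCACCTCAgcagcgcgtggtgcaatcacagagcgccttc
The windows searched were the 250 bases before the RefSeq start. The last 36, 17 and 49 of these bases for Hsd17b7, Lss and Cyp51 lie inside the transcript as GENCODE M21 annotates it and are not printed, although 1 CCAAT box of Hsd17b7 and that of Cyp51 fall in them. A CCAAT box was found in 14 of 17 promoters of the list (82.4%), against 36.2% of 11593 tested genes with a promoter in the RefSeq table. It was also in 20 of 33 promoters of the FOXO list (60.6%) and 7 of 16 of the MAPK feedback list (43.8%), both described below. The sterol element core, chosen after sequences had been seen, was in 6 of 17 (35.3%), against 9.28% of all. Among all genes called lower under insulin, 34.4% of 186 promoters held a CCAAT box and 11.3% the sterol core, and among genes called higher 37.3% and 10.3% of 126. A match is a description of these letters only.

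Hsd17b7, a sterol reductase, had 163, 175, 165 and 170.1 CPM under insulin, against 210.4, 217, 212 and 209.7 CPM under IGF-1 (log2 difference -0.33, SE 0.05, edgeR adjusted p = 2.76e-05). Lss, lanosterol synthase, which closes the sterol rings, had 296, 320.1, 304 and 310.3 CPM under insulin, against 397, 376, 375 and 379 CPM under IGF-1 (-0.31, SE 0.04, edgeR adjusted p = 3.03e-06). Cyp51, lanosterol demethylase, had 543, 529.7, 537 and 526 CPM under insulin, against 631, 634, 615 and 641 CPM under IGF-1 (-0.24, SE 0.04, edgeR adjusted p = 6.96e-05). In all of these the insulin libraries lay below the IGF-1 libraries by more than the spread within either group. Acat2 (-0.23), the first enzyme, and Stard4 (-0.24), a sterol carrier, were lower by a similar amount. Sqle, Sc5d, Msmo1 and the SREBP retention gene Insig1 had log2 differences of -0.19 to -0.17. Called lower members numbered 11 to 18 over the 16 alternative fits. Members that did not pass included Idi1 (-0.17, edgeR adjusted p = 0.0677), Hmgcs1 (-0.11, 0.0771) and Ebp (0.01, 95% interval -0.12 to 0.13).

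Against vehicle both hormones raised these genes, and the 2 comparisons share the vehicle libraries. Hsd17b7 stood at 1.72 log2 units over vehicle under insulin and at 2.05 under IGF-1. For Lss the values were 1.41 under insulin and 1.72 under IGF-1. The insulin libraries were thus between vehicle and IGF-1 libraries, with vehicle at 47.5 to 54.2 CPM for Hsd17b7. Over all genes tested, 7239 (46.4%) were called for insulin against vehicle, 24.7% higher and 21.7% lower, and 8114 (52%) for IGF-1 against vehicle, 26.9% higher and 25.1% lower. Among the 251 genes lower under insulin than under IGF-1, insulin was called above vehicle in 153 and below it in 35, with a median log2 value of 0.23. IGF-1 was called above vehicle in 216 of the 251 and below it in 5, with a median of 0.49. Among the 166 genes higher under insulin, insulin was above vehicle in 35 and below it in 74 (median -0.08), and IGF-1 was above in 13 and below in 123 (median -0.39). These members were chosen on the same libraries, so the counts are a description.

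The transcription factor gene Srebf1, whose product drives fatty acid synthesis, was higher under insulin. It had 246, 251, 254 and 247 CPM under insulin, against 219, 205, 225 and 229 CPM under IGF-1 (log2 difference 0.18, SE 0.04, edgeR adjusted p = 0.00764). Leaving out IGF-1 replicate 2 ended this call. Among 20 fatty acid genes 6 were lower, namely the elongases Elovl6 (-0.25) and Elovl7 (-0.36), Acaca (-0.16), Fasn (-0.13), Acly (-0.13) and the desaturase gene Scd1 (-0.13), and 2 were higher, Srebf1 itself and Gpam (0.19), which starts glycerolipid synthesis. Of all genes tested 1.61% were lower and 1.06% higher. Elovl6 held in each alternative, with 96.0, 101, 99.8 and 96.0 CPM under insulin, against 113, 123, 115 and 116 CPM under IGF-1. Without insulin replicate 1, or without IGF-1 replicate 2, 2 of the 20 were called lower, and without IGF-1 replicate 2 0 were called higher. The floxed control comparison called 1 of the 20 lower and 1 higher, with a median of -0.04, against -0.05 in IRKO cells. Elovl7 and Acaca lost their calls without insulin replicate 1, and Acaca also without IGF-1 replicate 2. Of the cholesterol export and LXR target genes 0 of 10 were called in edgeR or in any of the 16 alternatives, with 1 at an unadjusted p under 0.05. The cholesterol exporter gene Abca1 had a log2 difference of 0.07 (95% interval -0.01 to 0.15) and Apoe, the main lipoprotein gene of astrocytes, 0.07 (95% interval -0.03 to 0.17).

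**Figure D3:**
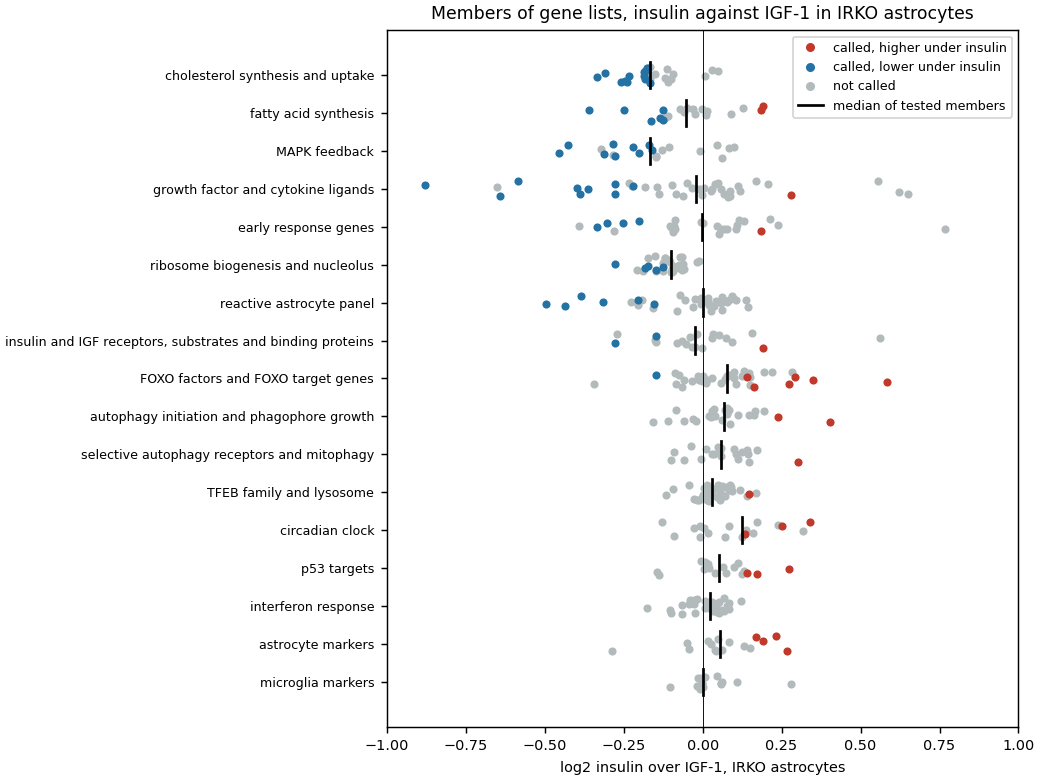
Log2 insulin over IGF-1 in IRKO astrocytes for the tested members of 17 gene lists within the axis range of -1 to 1 (points; red, called higher; blue, called lower; grey, not called; bar, median). The medians of the cholesterol and MAPK feedback lists lie left of 0, at -0.17 each, and those of the FOXO and clock lists to the right, at 0.08 and 0.12. Each of these lists has members on both sides of 0.

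Of 20 feedback brakes and readouts of the MAPK cascade, 9 were lower under insulin, against 1.61% of all genes tested, and 0 were higher. The median log2 difference was -0.17. In floxed control cells 8 were lower. Dusp6, the phosphatase that inactivates ERK, had 27.0, 24.1, 25.7 and 24.2 CPM under insulin, against 32.8, 34.6, 31.8 and 36.7 CPM under IGF-1 (log2 difference -0.43, SE 0.07, edgeR adjusted p = 0.00014). Vehicle libraries had 25.4 to 32.6 CPM, so the IGF-1 libraries overlapped them at the upper end and the insulin libraries at the lower. Against vehicle Dusp6 differed by -0.22 under insulin and by 0.20 under IGF-1, which are opposite directions, both called (edgeR adjusted p = 0.00852 and 0.0115). Spry4, a Sprouty inhibitor of receptor kinase signalling, had 31.1, 31.6, 28.1 and 29.4 CPM under insulin, against 39.7, 34.7, 38.8 and 35.9 CPM under IGF-1 (-0.31, SE 0.06, edgeR adjusted p = 0.00101). Both hormones raised Spry4 over vehicle, by 0.49 under insulin and 0.81 under IGF-1. Spred3 (-0.28), Spred1 (-0.17), the phosphatase genes Dusp4 (-0.45), Dusp7 (-0.28) and Dusp16 (-0.16), the ETS factor gene Etv5 (-0.22) and Phlda1 (-0.20) were the other members called. For Phlda1, 33.0% of the exon sequence also belongs to the neighbour Gm28592, and reads there cannot be told apart without strand. Over the alternatives 7 to 10 members were called lower. Dusp1 (0.08, 95% interval -0.11 to 0.27) and Etv4 (0.04, 95% interval -0.16 to 0.25) did not pass.

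Early response genes were mixed, with 4 of 28 lower and 1 higher, against 1.61% and 1.06% of all genes tested. Ccn1, a matricellular protein gene read out by YAP and serum response factor, had 116, 113, 116 and 104 CPM under insulin, against 139.5, 138, 131 and 147 CPM under IGF-1 (-0.30, SE 0.05, edgeR adjusted p = 4.31e-05). Maff (-0.34), the AP-1 subunit gene Fosl2 (-0.20) and Ier3 (-0.25) were lower too, and these 4 calls held in each of the 16 alternatives. Jun, another AP-1 subunit gene, was the 1 higher, at 0.19 (edgeR adjusted p = 0.00985), a call lost without insulin replicate 1 or IGF-1 replicate 2.

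Secreted signals gave 9 lower and 1 higher of 40, against 1.61% and 1.06% of all genes tested. In floxed control cells 8 of the 40 were lower and 3 higher. Ereg (chr5:91074622-91093646), which encodes epiregulin, an EGF receptor ligand, had 3.44, 3.91, 2.97 and 3.70 CPM under insulin, against 7.63, 5.43, 5.69 and 6.97 CPM under IGF-1 (log2 difference -0.88, SE 0.17, edgeR adjusted p = 0.000855). Insulin libraries of Ereg thus had 54.4% of the IGF-1 level, above the vehicle libraries at 2.03 to 2.66 CPM. Hbegf, another EGF receptor ligand, had 51.1, 48.8, 41.8 and 43.6 CPM under insulin, against 61.2, 62.1, 57.7 and 61.7 CPM under IGF-1 (-0.39, SE 0.07, edgeR adjusted p = 0.000435). Shh (chr5:28456815-28467256), Sonic hedgehog, had 11.1, 12.3, 12.5 and 13.9 CPM under insulin, against 15.9, 17.9, 20.03 and 20.8 CPM under IGF-1 (-0.58, SE 0.11, edgeR adjusted p = 0.00117). For Shh all insulin libraries lay above the vehicle range of 4.10 to 7.14 CPM and below the IGF-1 range. Its receptor gene Ptch1, a transcriptional target of the pathway, did not pass (-0.04, 95% interval -0.12 to 0.04).

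Tnfsf11, the TNF family ligand RANKL, had 5.15, 4.96, 4.70 and 6.13 CPM under insulin, against 8.38, 7.61, 8.71 and 8.02 CPM under IGF-1 (-0.64, SE 0.15, edgeR adjusted p = 0.00805). Nrg1, neuregulin, had 71.1, 79.9, 69.7 and 74.0 CPM under insulin, against 89.9, 89.3, 88.3 and 89.8 CPM under IGF-1 (-0.28, SE 0.05, edgeR adjusted p = 0.000147). Unlike the other ligands so far, Nrg1 lay below vehicle under both hormones, by -0.51 under insulin and -0.23 under IGF-1. The chemokine genes Cxcl1 (-0.40), Ccl2 (-0.22) and Ccl20 (-0.63), the neurotrophin gene Bdnf (-0.36) and Pdgfb (-0.28) were lower. Cxcl1 had 1307, 1295, 1219 and 1349 CPM under insulin, against 1790.0, 1641, 1734 and 1644 CPM under IGF-1. Tgfb2 was higher, with 64.8, 58.9, 64.1 and 68.6 CPM under insulin, against 56.8, 53.9, 51.9 and 48.6 CPM under IGF-1 (0.28, SE 0.06, edgeR adjusted p = 0.00426). Called lower members numbered 7 to 9 over the alternatives. Ccl20 is not a member of the list of 40 and was named by its size.

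**Figure D4:**
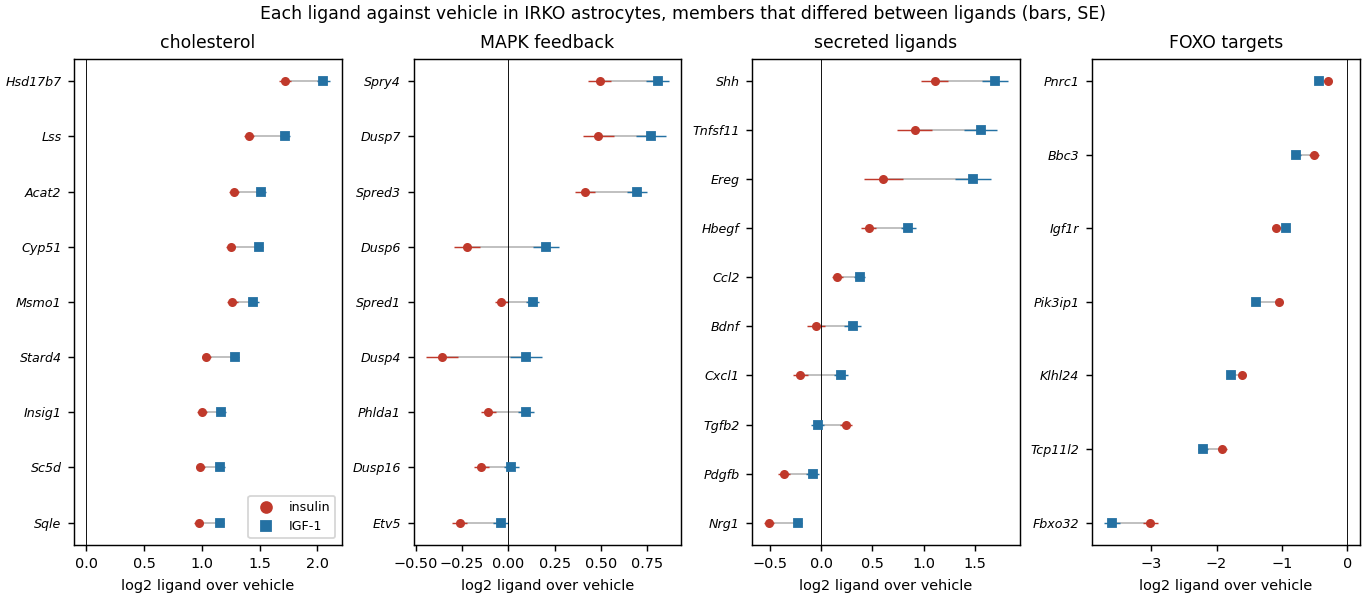
Log2 of each hormone over vehicle in IRKO astrocytes (circles, insulin; squares, IGF-1; bars, SE) for called members of 4 lists, 9 of the 12 in the cholesterol list; both hormones are set against the same 4 vehicle libraries. The cholesterol genes drawn lie right of 0 under both, from 0.97 to 1.72 under insulin, against 1.16 to 2.05 under IGF-1, while Dusp6 lies at -0.22 under insulin and 0.20 under IGF-1.

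FOXO factors raise their target genes when AKT signalling is low. Of 39 tested factors and targets 6 were higher and 1 lower (Igf1r), against 1.06% and 1.61% of all genes tested. The median log2 difference was 0.08. The floxed control comparison called 3 higher and 1 lower, with a median of 0.06. Pik3ip1, an inhibitor of PI3-kinase, had 57.8, 57.0, 55.7 and 51.6 CPM under insulin, against 41.1, 41.4, 44.4 and 47.4 CPM under IGF-1 (log2 difference 0.35, SE 0.05, edgeR adjusted p = 6.88e-05). It was the member that held in each alternative, and both hormone groups lay well below the vehicle libraries at 109 to 122 CPM. Fbxo32, the muscle atrophy ubiquitin ligase atrogin-1, had 5.91, 5.02, 6.48 and 7.00 CPM under insulin, against 4.94, 5.05, 3.02 and 3.27 CPM under IGF-1. These groups overlapped, with the lowest insulin library just below the highest IGF-1 library (0.58, SE 0.16, edgeR adjusted p = 0.0307). Vehicle libraries had 46.2 to 52.1 CPM of Fbxo32, so it was 3.02 log2 units lower than vehicle under insulin and 3.60 lower under IGF-1 (log2 -3.02 and -3.60). The pro-apoptotic gene Bbc3 (0.27), Klhl24 (0.16), Pnrc1 (0.14) and Tcp11l2 (0.29) were the other higher members. Without insulin replicate 1 or 3, or without IGF-1 replicate 3 or 4, 1 of the 39 was called higher, and without any 1 of the other 4 libraries 4 were. Foxo3 was at 0.13 (edgeR adjusted p = 0.0569) and Sesn3 at -0.00025 (95% interval -0.09 to 0.09). In the promoter window the FOXO site GTAAACA, searched on both strands, was in 4 of 33 promoters of the list (12.1%), against 2.17% of all. Those 4, of Yod1, Bcl2l11, Txnip and Btg1, belong to genes that were not called, and the promoters of the called Pik3ip1, Bbc3, Pnrc1, Tcp11l2 and Igf1r held no match. The same site was in 2 of 16 promoters of the MAPK feedback list (12.5%).

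In the list of autophagy initiation and phagophore growth 2 of 24 were higher, Wdr45 and Atg13, against 1.06% of all genes tested. None of the 24 was lower, and the median was 0.07. The floxed control comparison called 0 of the 24, also with a median of 0.07. Wdr45, a phosphoinositide-binding protein of phagophore growth, had 11.9, 10.4, 11.8 and 10.6 CPM under insulin, against 8.38, 8.11, 8.59 and 8.82 CPM under IGF-1 (0.40, SE 0.08, edgeR adjusted p = 0.00223). Because 24.7% of its exon length is shared with the gene Gm45208, its reads cannot be fully separated. Atg13, a subunit of the ULK1 kinase complex, stood at 0.24 (edgeR adjusted p = 0.00697) and lost its call without insulin replicate 1. Ulk1, the kinase that starts autophagy, had 42.2, 43.0, 41.8 and 38.2 CPM under insulin, against 34.6, 37.2, 35.3 and 37.3 CPM under IGF-1. The groups did not overlap, but the gene did not pass (0.19, 95% interval 0.08 to 0.31, edgeR adjusted p = 0.0572), and it passed in 6 of 16 alternatives. Calcoco1, a receptor for selective autophagy of the endoplasmic reticulum, had 59.4, 62.4, 56.8 and 57.9 CPM under insulin, against 50.0, 48.8, 43.7 and 49.3 CPM under IGF-1 (0.30, SE 0.05, edgeR adjusted p = 0.00014). It was the 1 of 21 selective receptors called, against 2.67% of all genes tested. At an unadjusted p under 0.05, 8 of the 21 were higher and 1 lower, against 1067 and 1080 of 15599 genes. A value above 0 was found in 16 of the 21, against 7857 of 15599. Sqstm1, the p62 cargo receptor gene, did not pass (0.11, 95% interval 0.02 to 0.20, edgeR adjusted p = 0.248). Of 16 ATG8 family and conjugation genes 0 were called by edgeR, with 2 at an unadjusted p under 0.05, and 0 by DESeq2. Among 38 TFEB and lysosome genes Tpp1, a lysosomal peptidase gene, was higher at 0.15 (edgeR adjusted p = 0.0286), a call lost without insulin replicate 1, 3 or 4 or IGF-1 replicate 1, 3 or 4. As the 1 call of that list, it is near the 2.67% called over all genes tested. Of the 38 genes, 30 had a value above 0, with a median of 0.03, and 4 were higher and 0 lower at an unadjusted p under 0.05.

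Of 21 receptors, substrates and binding proteins, 1 was higher and 2 lower, against 1.06% and 1.61% of all genes tested. Igfbp3, an IGF-binding protein gene, had 664, 628, 642 and 640.1 CPM under insulin, against 780.2, 816, 769.5 and 755 CPM under IGF-1 (-0.28, SE 0.05, edgeR adjusted p = 0.00115). Igfbp5, another, went the opposite way, with 581, 559, 557 and 561 CPM under insulin, against 506, 505, 487 and 478 CPM under IGF-1 (0.19, SE 0.05, edgeR adjusted p = 0.0179). Igf1r had 97.5, 96.4, 89.3 and 92.0 CPM under insulin, against 108, 109, 102 and 96.3 CPM under IGF-1, where 2 insulin libraries lay at or above the lowest IGF-1 library (-0.15, SE 0.04, edgeR adjusted p = 0.0394). The call of Igfbp5 was lost without insulin replicate 1 or IGF-1 replicate 3 or 4, and that of Igf1r in 7 of 16 alternatives, among them scaling by library size alone, the fit of the 8 libraries only, and leaving out insulin replicate 3 or 4 or IGF-1 replicate 1, 2 or 3. Irs2, an insulin receptor substrate gene (-0.03, 95% interval -0.11 to 0.04), and Pappa, which encodes a protease that cleaves IGF-binding proteins (-0.02, 95% interval -0.24 to 0.20), did not pass. Of 36 PI3-kinase, AKT and mTORC1 genes 1 was called, Pik3ip1, which is near the 2.67% called over all genes tested.

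Of 32 ribosome biogenesis genes 5 were lower under insulin, against 1.61% of all genes tested, and 0 higher. The median log2 difference was -0.10, and 0 of the 32 had a value above 0. The floxed control comparison called 1 of them lower and 0 higher, with a median of -0.08. Rrp12, a factor of pre-ribosome maturation, had 47.7, 50.8, 51.5 and 49.4 CPM under insulin, against 59.6, 58.4, 65.0 and 58.6 CPM under IGF-1 (-0.28, SE 0.05, edgeR adjusted p = 0.00128) and held in each alternative. Nop56 (-0.18), the helicase gene Ddx21 (-0.13), Noc3l (-0.17) and the nucleolar chaperone gene Npm1 (-0.15) did not: 2 of the 32 were called with scaling by library size alone or without IGF-1 replicate 3 or 4 or any 1 of insulin replicates 1 to 3, and 3 without IGF-1 replicate 1 or 2 or insulin replicate 4. Ccnd1, cyclin D1, had 1147, 1106, 1097 and 1104 CPM under insulin, against 1311, 1275, 1299 and 1287 CPM under IGF-1 (-0.22, SE 0.03, edgeR adjusted p = 0.000111), where 23.4% of the exon sequence also belongs to the gene LTO1. It was the 1 call among 33 cell cycle genes. The lactate carrier gene Slc16a1 (-0.17, edgeR adjusted p = 0.00764) was the 1 of 24 glucose and lactate genes, and the arginine carrier gene Slc7a1 (-0.20, edgeR adjusted p = 0.0463) the 1 of 30 ATF4 and amino acid genes. The call of Slc7a1 was lost with scaling by library size alone and without insulin replicate 1 or 3 or IGF-1 replicate 1, 3 or 4. Herpud1, an ER stress gene, was the 1 of 25 chaperone genes (0.22, edgeR adjusted p = 0.0142). That count was 0 without insulin replicate 3, IGF-1 replicate 2 or IGF-1 replicate 4. Single calls in the cell cycle, glucose, ATF4 and chaperone lists are near the 2.67% called over all genes tested. Of 25 oxidative phosphorylation genes 0 were called by edgeR, with 1 at an unadjusted p under 0.05, and 0 by DESeq2. The alternatives covered 27 entries, as they kept a symbol shared by different genes that the 25 leave out. Without the filter on low counts 2 of the 27 were lower, and 1 was in the 8 libraries alone or without insulin replicate 4. Cox7c, a cytochrome oxidase subunit gene (-0.32), passed in 3 of the 16 alternatives.

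Of 19 circadian clock genes 3 were higher under insulin, against 1.06% of all genes tested, and 0 lower. The floxed control comparison called 0 of the 19, with a median of 0.09, against 0.12 in IRKO cells. Dbp, a clock-driven transcription factor gene, had 54.9, 50.2, 54.1 and 45.0 CPM under insulin, against 38.2, 41.0, 44.1 and 38.1 CPM under IGF-1 (0.34, SE 0.06, edgeR adjusted p = 0.000366). Nr1d2, the nuclear receptor REV-ERB beta, had 73.7, 73.5, 68.9 and 71.5 CPM under insulin, against 62.6, 61.4, 59.2 and 58.3 CPM under IGF-1 (0.25, SE 0.04, edgeR adjusted p = 0.00018). Neither pair of groups overlapped. The relative Tef (0.13) was called in 4 of 16 alternatives and lost with each of the 8 libraries left out. Of 18 p53 targets 3 were higher, Trp53inp1 (0.17), Bbc3 (0.27) and Fas (0.14), against 1.06% of all genes tested. Without any 1 of insulin replicates 1 and 3 and IGF-1 replicates 2 to 4, 1 of the 18 was called.

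Among reactive astrocyte genes 6 of 35 were lower, against 1.61% of all genes tested, and 0 higher. The floxed control comparison called 5 of the 35 lower and 5 higher. Tm4sf1, a tetraspanin-like membrane protein gene, had 127, 124, 127 and 129 CPM under insulin, against 180.3, 181, 175 and 177 CPM under IGF-1 (-0.49, SE 0.06, edgeR adjusted p = 4.35e-07). Its insulin libraries also lay below the vehicle libraries at 147 to 184 CPM, while the IGF-1 libraries lay within them. Ptx3, pentraxin 3, had 956, 1012, 865 and 947 CPM under insulin, against 1260.0, 1209, 1260.0 and 1201 CPM under IGF-1 (-0.38, SE 0.07, edgeR adjusted p = 0.000215). The cytokine gene Clcf1 (-0.32), the transglutaminase gene Tgm1 (-0.44), S100a10 (-0.21) and Cd44 (-0.15), the hyaluronan receptor gene, were the others. Without insulin replicate 1 or 4, 3 of 35 were called, and the call of Tgm1 was lost without either of these or without IGF-1 replicate 1. Gfap, the reactive intermediate filament gene, did not pass (0.08, 95% interval -0.01 to 0.17). Interferon response genes gave 0 of 30 in edgeR, with 3 at an unadjusted p under 0.05 (2 higher, 1 lower), and 0 in DESeq2. Without the filter on low counts, or in the 8 libraries alone, 1 was lower. In floxed control cells 13 of the 30 were higher under insulin. The median log2 difference was 0.02 in IRKO and 0.17 in floxed control cells, and 0 of the 30 passed the test of the genotype difference in edgeR with the filter on low counts. Without that filter Ifit1 (log2 -0.25), Ifit2 (-0.35) and Rsad2 (-0.32) were among the genes called lower for this difference, all named above.

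Defining markers of astrocytes were present, except that Gjb6 was at or near 0. S100b was low, at 2.15 to 3.9 CPM without TMM scaling in the 8 libraries. Of 16 tested markers 4 were higher under insulin, against 1.06% of all genes tested, and 0 lower. Aqp4, the water channel gene of astrocyte endfeet, had 1312, 1303, 1223 and 1295 CPM under insulin, against 1122, 1131, 1136 and 1109 CPM under IGF-1 (0.19, SE 0.03, edgeR adjusted p = 0.000459). Kcnj10, the potassium channel Kir4.1, had 307, 308, 312 and 305 CPM under insulin, against 267, 266, 239 and 252 CPM under IGF-1 (0.27, SE 0.05, edgeR adjusted p = 0.00145). The transcription factor gene Sox9 (0.23) and Ndrg2 (0.17) were the others, and the call of Ndrg2 was lost without insulin replicate 3 or 4. Summed over the 17 markers listed, as CPM without TMM scaling, the insulin libraries had 5718 to 5853 CPM, the IGF-1 libraries 5363 to 5409 CPM and the vehicle libraries 5717 to 6029 CPM. In bulk RNA a different number of cells of a type and a different amount of RNA per cell cannot be told apart.

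The 15 microglia markers summed to 1486 to 1527 CPM under insulin, against 1444 to 1544 CPM under IGF-1, and 0 were called in edgeR, with 0 at an unadjusted p under 0.05, and 0 in DESeq2. Olig2, a transcription factor of the oligodendrocyte lineage, was lower under insulin, with 97.9, 109, 102 and 97.0 CPM against 130.3, 113, 128 and 119 CPM under IGF-1 (-0.27, SE 0.05, edgeR adjusted p = 0.00109). It was the 1 call among 8 tested markers of that lineage, against 1.61% of all genes tested called lower. Of the 8 markers, 4 had a value above 0. Cnp, another member, leaned the other way without passing (0.11, edgeR adjusted p = 0.246). That list summed to 434.5 to 442 CPM under insulin, against 458 to 489 CPM under IGF-1. Most of the sum came from Olig2 and Olig1, the latter with 187 to 200 CPM under insulin, against 203 to 216 CPM under IGF-1. Foxj1, the master factor of motile cilia in ependymal cells, was higher, with 228, 215, 201 and 189.8 CPM under insulin against 172, 159.8, 164 and 157 CPM under IGF-1 (0.35, SE 0.06, edgeR adjusted p = 0.000535), while Kl, of the same list, was at 0 in the 8 libraries. That list summed to 238 to 279.5 CPM under insulin, against 204 to 225 CPM under IGF-1, and Foxj1 itself made up most of the sum. Rarres2, the next largest member, had 44.4 to 49.5 CPM under insulin, against 44.5 to 50 CPM under IGF-1. The remaining members had at most 2.37 CPM in any of the 8 libraries. Endothelial markers reached 6.22 to 8.13 CPM under insulin, against 8.46 to 10.1 CPM under IGF-1. Fibroblast and mural markers summed to 414 to 443 CPM under insulin, against 406 to 438 CPM under IGF-1, neuron markers to 145.5 to 151 CPM and 146 to 155 CPM, and liver transcripts to 1.12 to 10.97 CPM and 1.38 to 4.44 CPM. By edgeR 0 endothelial, 0 neuron, 0 fibroblast and mural and 0 liver markers were called, with 1, 2, 1 and 1 at an unadjusted p under 0.05; DESeq2 called 1 endothelial and 1 neuron marker. Without the filter on low counts, or in the 8 libraries alone, 1 endothelial marker was lower and 1 liver transcript higher, and 1 neuron marker was lower with the share of reads outside genes as a covariate or without insulin replicate 2. The part of these cells in the differences above was not tested.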

How the data were processed

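Poly-A RNA was sequenced in 24 libraries as paired reads without strand marking, per the labels' protocols. The deposited files hold raw read counts per gene, which the authors made from the reads; STAR 2.7.7a, edgeR, DESeq2 and the mm10 genome are named in the submitters' processing notes, while the program that counted and the gene annotation used for it were not given in the sources used here. Every file lists 32719 genes and 3 summary lines that name no gene; these lines entered neither totals nor tests (reads outside genes, 16.5% to 21.9% of reads in the 8 libraries). In these libraries the gene counts exceeded the reads overlapping genes by 4.55% to 4.93%.

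Genes were kept by edgeR's filterByExpr (minimum count 10, minimum total 15), and 15599 were tested with edgeR 4.0.16 in R 4.3.3: TMM scaling (factors 0.982 to 1.02), 1 mean for each of the 6 groups over all 24 libraries, quasi-likelihood tests and Benjamini-Hochberg adjusted p under 0.05. Insulin minus IGF-1 was tested in IRKO, in floxed control and as the difference between genotypes, and each hormone against vehicle in IRKO. Gene lists were described by counts and medians. Genes named were the 12 highest and 12 lowest calls whose groups did not overlap and whose log2 CPM averaged 2 or more, up to 4 members of lowest p in each list, and a fixed set (Insr, Igf1r, Irs2, Igfbp5, Pappa, Fbxo32, Ulk1, Sqstm1, Hsd17b7, Ereg, Spry4, Ccnd1); other genes were named after their values were seen, and some list members are not reported here by name. The comparison, its lists and its tests were chosen with earlier results of these data known. Coordinates are from GENCODE M21 (mm10) and promoters from RefSeq (GRCm38.p6). The test was checked on simulated counts. Alternatives were RLE scaling, library size alone, no filter, a mean CPM of at least 1, DESeq2 1.42.0, a replicate block, the share of reads outside genes as a covariate, the 8 libraries alone, and each of the 8 libraries left out.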

Additional observations from a re-analysis of the deposited data

Results flagged for a closer look

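Groups of 4 libraries were examined for named genes that were called or in the fixed set, for reads counted in genes and for the share of reads outside genes. Of these 170 groups, 6 (3.53%) held 1 library set apart from its nearest neighbour. There the gap took up more of the group's range than Dixon's 95% critical value for 4 samples allows, and chance gives about 1 in 20. Lrrc75b had 8.481 CPM in IGF-1 replicate 2, against 10.3 to 10.41 CPM in the other IGF-1 libraries. Ankrd34a had 3.866 CPM in insulin replicate 1 and 3.162 to 3.237 CPM in the other insulin libraries. Igfbp5 had 580.8 CPM in insulin replicate 1 and 557.3 to 561.2 CPM in the others. Stard4 had 236.5 CPM in insulin replicate 3 and 252.8 to 254.9 CPM in the others. Slc7a1 had 59.81 CPM in IGF-1 replicate 2 and 64.19 to 64.86 CPM in the other IGF-1 libraries. Spred3 had 78.31 CPM in IGF-1 replicate 4 and 73.03 to 73.76 CPM in the others.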

How the results depend on the processing

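The count of 417 genes called between insulin and IGF-1 in IRKO cells was 411 with RLE size factors, 445 with library size alone (220 higher, 225 lower), 581 without the filter on low counts, 425 at a mean CPM of at least 1, 490 in DESeq2, 465 with the share of reads outside genes as a covariate and 602 in the 8 libraries alone. With 1 library left out it was 267 to 402. For floxed control cells the same range was 247 to 424, with 250 without IGF-1 replicate 4 and 247 without insulin replicate 2. The genotype difference, 0 genes in edgeR, gave 16 without the filter, 2 in DESeq2 and 0 to 1 with 1 library left out; the cause was not tested. Of the 417 IRKO calls, 189 were called under every alternative, and none changed sign. Of 78 named genes called, 50 kept their call under all 16 alternatives. Log2 differences of uncalled genes changed sign for Pecam1 (0.0134 without IGF-1 replicate 2), Tek (0.0403 without IGF-1 replicate 2, 0.0762 without insulin replicate 2) and Pappa (0.0368, 0.0115, 0.0075 and 0.0363 without IGF-1 replicate 2, IGF-1 replicate 3, insulin replicate 1 and insulin replicate 3). Deviations of libraries with the same replicate number had correlations of 0.028, 0.010, -0.004 and 0.047, against -0.052 to 0.043 for unlike numbers. The labels state no pairing, and such small values cannot exclude one. With a replicate block 428 genes were called, 401 of them among the 417. Over all single libraries left out, the values spanned -0.504 to 0.0134 for Pecam1, -0.518 to 0.0762 for Tek and -0.112 to 0.0368 for Pappa. The cause of these changes was not tested. A log2 difference smaller than about 0.153 lies within the 95% interval of the median gene at this depth.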

Other observations

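Outside the lists, several calls of the lowest p, named after their values were seen, were lower under insulin. Akap12, a scaffold protein gene for kinase A, had 177, 175, 161 and 170.5 CPM in the IRKO insulin libraries, against 245, 235, 235 and 248 CPM in the IRKO IGF-1 libraries (log2 difference -0.50, edgeR adjusted p = 5.3e-11). Its log2 difference in floxed control cells was -0.57. Slc5a3, the sodium and myo-inositol carrier gene, had 236, 254, 236 and 253 CPM under insulin and 323, 349, 329.7 and 343 CPM under IGF-1 (log2 difference -0.46, edgeR adjusted p = 5.3e-11). Slit2, an axon guidance ligand gene, stood at -0.40, the extracellular matrix gene Tnc at -0.35, and Hif1a, the oxygen-regulated transcription factor gene, at -0.28. Has2, a hyaluronan synthase gene, was lower at -0.26 (edgeR adjusted p = 0.0127), in the same direction as Cemip. Higher under insulin were Pdcd4, an inhibitor of translation initiation, at 0.36, and the polarity gene Crb2 at 0.40.

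Rps29, a ribosomal protein gene, had 37.7, 39.4, 71.0 and 95.8 CPM under insulin and 109, 72.7, 96.3 and 115 CPM under IGF-1 (log2 difference -0.69, edgeR adjusted p = 0.0477); the groups overlapped. Egfr, the receptor for Ereg and Hbegf, was lower at -0.21 (edgeR adjusted p = 0.00397) in IRKO cells, and its log2 difference in floxed control cells was -0.045. Its genotype difference did not pass in edgeR with the filter on low counts, where 0 of 15599 genes did. Both genes were named after their values were seen.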
